A study of Mus musculus with 24 samples.

Results

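The 10 genes described here encode the skeletal muscle machinery that couples an action potential to calcium release at the triad. They are the calcium release channels Ryr1 and Ryr3, the voltage-sensor subunits Cacna1s, Cacna2d1, Cacnb1 and Cacng1, the adaptor Stac3, and the junctional proteins Jph1, Jph2 and Jsrp1. They were picked by symbol and role, with earlier results of these data known, and are 10 of the 14693 genes in the deposited count table. Transcripts were counted by 3′ end sequencing in C2C12, an established mouse myoblast line of wild-type genotype, so every value comes from 1 cell line. The cultures were expanded with 10% fetal bovine serum, and a change to 2% horse serum started differentiation. During it they received vehicle, albumin-bound linoleic acid at 100 µM (LA, a dietary polyunsaturated fat) or 10 ng/mL recombinant mouse ANGPTL4, a secreted inhibitor of lipoprotein lipase. RNA was taken at day 2 or day 6, which makes 6 groups of 4 libraries each. The labels do not say whether the vehicle held albumin.

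In a muscle fibre the action potential runs inward along the transverse tubule, where it meets the sarcoplasmic reticulum at the triad. The voltage sensor in the tubule membrane, a calcium channel complex built around Cacna1s, is mechanically linked to the release channel Ryr1 in the reticulum, and its movement opens that channel. Junctophilins hold the membranes close enough for this contact, and Stac3 is needed for the sensor to reach the membrane and to engage Ryr1. Cultured myotubes assemble these contacts as they mature, and Ryr3 is known as an isoform of developing muscle that recedes later.

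Library totals ranged from 6.1 M counts (day 6 ANGPTL4) to 25.05 M counts (day 2 LA), and member counts from 235 for Stac3 to 12784 for Ryr1, so each member was well above the counting floor in every library. All 12 skeletal muscle markers listed were detected, as were all 8 markers of reserve cells and myoblasts. Of 12 fibroblast markers 10 also passed the filter, so detection alone does not check the label "myoblast". The day 2 LA replicate 3 and the day 6 ANGPTL4 replicate 1 stood apart from their groups on the second principal component (scores of -19.3 and 18.7, 9.46% of the variance), and each member count was repeated without them. On that component the LA library scored within the range of day 2 ANGPTL4 replicates 1 to 3 (-19.7 to -15.3). Day 2 ANGPTL4 replicate 4 scored -4.61, outside that range, and was the lowest of its group for 6 of the 10 members. It was left out only on its own. On the first component (47.46% of the variance) day 6 LA replicate 2 scored 12.2, where the other libraries of its group scored 20.2 to 22.4. That LA library was the lowest of its group for 7 of the 10 members, and was also left out only on its own. Levels are in CPM, counts divided by the library total in M after scaling by edgeR's TMM factors, as mean ± SD over 4 libraries. Differences are log2 fold changes (log2FC) with an approximate standard error (SE). A gene was called, written as rose or fell, when its adjusted p in edgeR's quasi-likelihood test was below 0.05, adjusted over the 12994 genes tested. All 10 members were among them. Nothing says that the libraries came from separate cultures, so these p-values measure the spread between libraries. Because the reads come from 3′ ends and no length scaling applies, levels of one gene are compared between groups, and not with those of another gene.

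RefSeq start sites (build GRCm38.p6) gave an upstream window for 5 of the 10 members. The windows of Cacna1s, Jph2 and Ryr1 are shown because these genes stand for the sensor, the tether and the channel. Like all 10 members, they were lower with LA at day 6. Each run is the 250 bases before the annotated start, 5′ to 3′ on the gene's strand. Capitals mark CANNTG, the E-box core that myogenic bHLH factors such as MyoD bind.
Cacna1s, chr1:136052561-136052810, plus strand: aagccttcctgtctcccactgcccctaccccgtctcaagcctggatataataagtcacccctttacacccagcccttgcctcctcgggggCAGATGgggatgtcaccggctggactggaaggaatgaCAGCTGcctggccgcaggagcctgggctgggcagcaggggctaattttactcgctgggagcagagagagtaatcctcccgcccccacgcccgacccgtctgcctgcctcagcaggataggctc
Jph2, chr2:163397994-163398243, minus strand: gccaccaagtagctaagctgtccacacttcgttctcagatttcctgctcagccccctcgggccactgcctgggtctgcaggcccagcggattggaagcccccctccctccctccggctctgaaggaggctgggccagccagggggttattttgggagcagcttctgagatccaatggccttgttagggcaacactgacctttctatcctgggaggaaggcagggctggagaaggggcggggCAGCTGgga
Ryr1, chr7:29125152-29125401, minus strand: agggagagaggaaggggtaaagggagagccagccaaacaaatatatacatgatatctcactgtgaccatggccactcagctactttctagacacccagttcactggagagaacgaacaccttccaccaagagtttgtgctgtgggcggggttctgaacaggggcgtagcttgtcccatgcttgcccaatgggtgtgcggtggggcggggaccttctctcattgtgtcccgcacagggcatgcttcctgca
The Cacna1s window held E-boxes that begin 160 and 123 bases before the start, and the second is CAGCTG. The Jph2 window held 1, also CAGCTG, that begins 9 bases before the start, and the Ryr1 window held 0. CANNTG reads the same on both strands and includes CAGCTG, and of 32851 such mouse windows 66.22% held CANNTG and 13% held CAGCTG. No window of the members held a MEF2 motif, which 2.919% of all windows held. These matches describe the letters only.

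Over the vehicle course from day 2 to day 6, the channel Ryr1, the sensor subunits and the junctional genes rose, while Ryr3 and Stac3 fell. Of the 10 members 8 rose and 2 fell, in a comparison that called 25.2% of all genes higher and 20.5% lower. The median log2FC of the members was 0.331, and that of all tested genes was 0.0193. In bulk RNA, fewer myotubes and less RNA per myotube cannot be told apart, here or in any comparison that follows.

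Ryr1, the release channel of adult muscle, stood at 551, 562, 594 and 515 CPM in the day 2 vehicle libraries and at 853, 861, 861 and 839 CPM at day 6. Every day 6 library was above every day 2 library, and the day 6 libraries were tightly grouped. The change was a 1.54-fold rise (log2FC 0.62, SE 0.0555, adjusted p = 7.89e-11 by edgeR's quasi-likelihood test). Ryr3 went the other way, from 172, 188, 201 and 196 CPM to 109, 105, 115 and 107 CPM. Its groups did not overlap either, and it fell by 42.4% (log2FC -0.80, SE 0.083, adjusted p = 1.92e-08). In the GENCODE vM21 annotation of GRCm38, the 3′ end of Ryr3 lies under Aven, a gene on the opposite strand. The 3′ ends of Cacna1s and Jph1 also lie under opposite-strand antisense genes, Gm37759 and Gm28376. Neither antisense gene was among the genes tested, so their levels could not be set beside those members. Whether counting used strand is not given in the sources used here. Aven was at 14.6 ± 1.70 CPM at day 2 and 13.6 ± 0.230 CPM at day 6 with vehicle, and it was called in none of the 11 comparisons.

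Among the sensor subunits, Cacna1s, which forms the pore and carries the voltage-sensing segments, was at 267 ± 7.64 CPM at day 2 and rose to 378 ± 20.7 CPM (log2FC 0.50, SE 0.0548, adjusted p = 5.37e-09). Cacnb1, the cytoplasmic beta subunit that brings Cacna1s to the triad, rose from 129.9 ± 8.78 to 164 ± 4.77 CPM (log2FC 0.33, adjusted p = 1.35e-06). The largely extracellular subunit Cacna2d1 and the gamma subunit Cacng1, which damps the channel's current, rose by smaller amounts, with log2FC of 0.15 and 0.16. Those last calls were narrow. The adjusted p was 0.0303 for Cacna2d1 and 0.0361 for Cacng1, and it reached 0.209 without day 2 vehicle replicate 2 and 0.32 without day 6 vehicle replicate 1, respectively. Of the alternatives tried, 9 ended the Cacna2d1 call and 12 the Cacng1 call, among them DESeq2 size factors and library totals. The single libraries that did so were day 2 replicates 1 and 2 and day 6 replicates 1, 2 and 4 for Cacna2d1, and day 2 replicates 1, 3 and 4 and day 6 replicates 1 and 2 for Cacng1.

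Stac3, the adaptor between sensor and channel, was at 57.6, 59.0, 55.5 and 51.2 CPM at day 2 and at 51.5, 44.1, 47.3 and 47.4 CPM at day 6. Only the ends of the ranges met, with 15 of 16 library pairs lower at day 6. It fell by 14.7% (log2FC -0.23, SE 0.0644, adjusted p = 0.00422), while Cacna1s and Ryr1, which it joins, rose.

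The junctional genes rose together. Jph1, the junctophilin typical of skeletal muscle, went from 95.5 ± 3.29 to 122 ± 4.59 CPM (log2FC 0.35, adjusted p = 9.49e-07). Jph2, which is shared with heart, went from 308 ± 41.1 to 387 ± 23.6 CPM (log2FC 0.33, adjusted p = 0.00039). Jsrp1, a reticulum protein that binds the voltage sensor and calsequestrin, went from 64.4 ± 8.29 to 94.5 ± 6.18 CPM (log2FC 0.55, adjusted p = 3.57e-06). Day 2 vehicle replicate 4 was the lowest library of its group for 6 of the 10 members, among them Jph2 at 248 CPM against 314 to 337 CPM, and Jsrp1 at 52.2 CPM against 66.5 CPM in the next lowest.

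**Figure D1:**
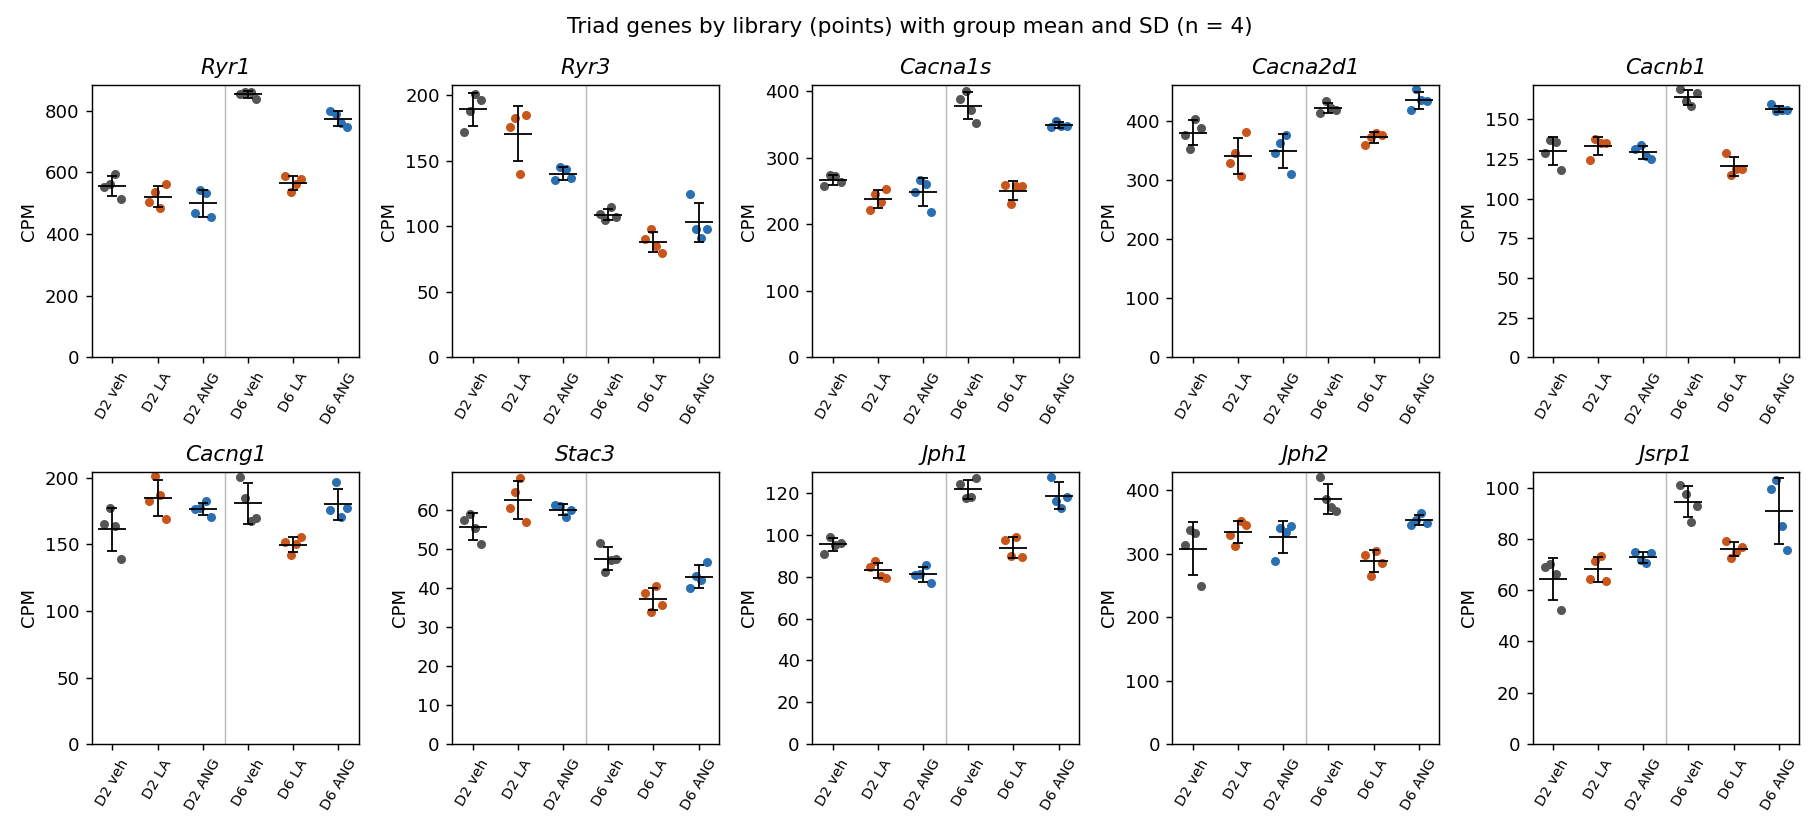
Level of each member in CPM (vertical axes, each from 0) in the 24 libraries, by group (horizontal axis; veh, vehicle; ANG, ANGPTL4; D2 and D6, day 2 and day 6). Points are libraries and bars are group means with SD (n = 4): Ryr1 and Cacna1s rise to day 6 with vehicle and ANGPTL4 and sit near day 2 levels with LA, while Ryr3 and Stac3 are lower at day 6 in every treatment.

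With LA the same interval looked different. Of the 10 members, Jph1 alone rose, 5 fell (Ryr3, Cacnb1, Cacng1, Stac3 and Jph2) and 4 were not called, where 23.1% of all genes were called higher and 20.7% lower. Ryr1 went from 503, 538, 483 and 563 CPM at day 2 to 588, 537, 563 and 580.3 CPM at day 6, so the groups overlapped (log2FC 0.12, 95% interval 0.00426 to 0.237, adjusted p = 0.0762). Cacna1s was at 239 ± 13.6 and 251 ± 13.7 CPM (log2FC 0.073, interval -0.0422 to 0.188, adjusted p = 0.287). Without day 2 LA replicate 4 both Ryr1 (log2FC 0.16, adjusted p = 0.0323) and Cacna2d1 (0.18, 0.00913) became called as higher. Stac3 fell by 40.9% (log2FC -0.76, adjusted p = 2.75e-11) and Ryr3 by 48.2% (log2FC -0.95, adjusted p = 9.85e-10). Cacng1 fell by 19.1% and Jph2 by 13.9%, both of which rose with vehicle. The Cacnb1 call (log2FC -0.14, adjusted p = 0.019) was lost without each of 4 single libraries, day 2 LA replicate 2 and day 6 LA replicates 2, 3 and 4, at an adjusted p of up to 0.0692. The Jph2 call (adjusted p = 0.0146) was lost without day 2 LA replicate 3 or day 6 LA replicate 2, at up to 0.0573.

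With ANGPTL4, 6 members rose, 2 fell and 2 were not called, where 22.4% of all genes were called higher and 19.8% lower. With library totals in place of TMM factors, the share of called genes that were higher moved from 53.1% to 38.3%, and the members stayed at 6 and 2. Ryr1 rose by 0.63 and Cacna1s by 0.49 on the log2 scale, beside 0.62 and 0.50 with vehicle. Jph1 rose by 0.55, beside 0.35 with vehicle and 0.18 with LA. Ryr3 fell by 0.45 on the log2 scale, from 135, 145, 144 and 137 CPM at day 2 to 125, 98.3, 91.3 and 97.7 CPM at day 6, and the high day 6 library is the one that stood apart. Cacng1 (log2FC 0.028, adjusted p = 0.763) and Jph2 (0.11, adjusted p = 0.208) were not called.

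**Figure D2:**
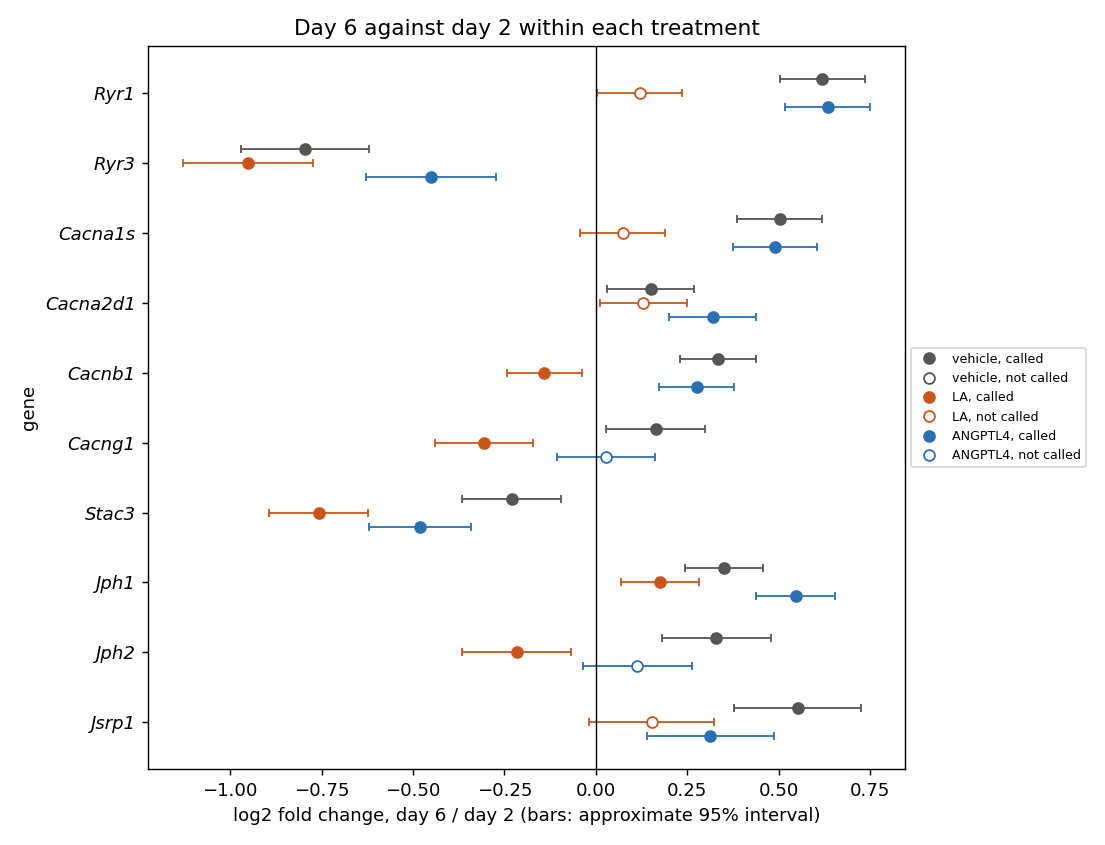
Log2 fold change from day 2 to day 6 (horizontal axis) for each member (vertical axis) with vehicle, LA and ANGPTL4; bars are approximate 95% intervals and filled points are called. The LA points lie to the left of the vehicle points for all 10 members, and Ryr3 and Stac3 lie left of 0 in each treatment.

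At day 6, all 10 members fell with LA relative to vehicle. No other comparison with vehicle moved all members one way. The calls covered 7.83% of all genes upward and 9.38% downward, and the members' median log2FC was -0.366 where that of all genes was -0.0096. For each of the 10 genes every LA library was below every vehicle library. The share of all genes whose libraries separated in this way was not counted, and 28.3% of all genes had an unadjusted p under 0.05 in edgeR's test. The share of all called genes that were higher moved from 45.5% to 59.1% with library totals in place of TMM factors, where 9 of 10 members still fell.

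Both ends of the mechanical link fell most. Ryr1 was at 588, 537, 563 and 580.3 CPM with LA and at 853, 861, 861 and 839 CPM with vehicle, a fall of 33.6% (log2FC -0.59, SE 0.0556, adjusted p = 2.98e-09 by edgeR's quasi-likelihood test). Cacna1s was at 258, 230.1, 257 and 257 CPM with LA and at 389, 400.5, 372 and 353 CPM with vehicle, a fall of 33.8% (log2FC -0.59, SE 0.055, adjusted p = 2.2e-09). For both genes the gap between the groups was several times the spread within them. The group means of Ryr1 ordered day 6 vehicle, day 6 ANGPTL4, day 6 LA, day 2 vehicle, day 2 LA and day 2 ANGPTL4. Of these neighbours, the first 3 groups were separated from each other and the last 4 overlapped in sequence, so Ryr1 in LA cultures at day 6 was within the range of day 2.

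The accessory sensor subunits fell by less. Cacnb1 was at 129, 115, 119 and 119 CPM with LA and at 169, 162, 158 and 166 CPM with vehicle (log2FC -0.44, SE 0.0494, adjusted p = 6.14e-08), which gave LA at day 6 the lowest mean of the 6 groups. Cacng1 was at 151, 142, 150.4 and 155 CPM with LA and at 201, 185, 167 and 170.2 CPM with vehicle (log2FC -0.27, adjusted p = 0.00267), again the lowest mean. Cacna2d1 was at 361, 373, 381 and 377 CPM with LA and at 414, 434, 422 and 419 CPM with vehicle. That fall of 11.8% was the smallest of the 10 (log2FC -0.18, adjusted p = 0.0245). It was lost with library totals (adjusted p = 0.066) and without any single library of these groups other than vehicle replicate 3, at up to 0.112 without vehicle replicate 2.

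Stac3 was at 37.2 ± 2.91 CPM with LA and 47.6 ± 3.04 CPM with vehicle (log2FC -0.36, SE 0.0673, adjusted p = 0.000197). Among the junctional genes Jph2 fell by 25.6%, from 387 ± 23.6 to 288 ± 17.2 CPM (log2FC -0.43, adjusted p = 5.51e-05), Jph1 by 22.9%, from 122 ± 4.59 to 94.0 ± 5.13 CPM (log2FC -0.37, adjusted p = 1.58e-06), and Jsrp1 by 19.6%, from 94.5 ± 6.18 to 75.9 ± 2.73 CPM (log2FC -0.31, adjusted p = 0.00692). The tethers and the adaptor were therefore lower by amounts between those of Cacna2d1 and Ryr1. Ryr3, already low by day 6, fell from 109, 105, 115 and 107 CPM to 90.0, 97.8, 85.0 and 79.6 CPM (log2FC -0.31, SE 0.0856, adjusted p = 0.0132). Without LA replicate 4 its adjusted p was 0.0723.

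At day 2 the LA effects were small and of both signs: 2 members fell, 1 rose and 7 were not called, where 8.27% of all genes were called higher and 6.82% lower. Library totals moved the share of called genes that were higher from 54.8% to 68.2%, and the members to 2 that rose (Cacng1 and Stac3) and 1 that fell (Jph1). Jph1 fell from 91.2, 99.1, 95.5 and 96.3 CPM to 84.9, 87.5, 80.5 and 79.6 CPM, with no overlap (log2FC -0.20, SE 0.0502, adjusted p = 0.00837). Cacna1s fell from 258, 275, 272 and 264 CPM to 222, 245, 234 and 253 CPM, also with no overlap (log2FC -0.16, adjusted p = 0.038). Cacng1 rose from 165, 177, 164 and 139 CPM to 182, 201, 187 and 169 CPM, where 15 of 16 library pairs were higher (log2FC 0.20, adjusted p = 0.0317). The Jph1 call was lost in 1 of 17 alternatives, a fit of only the compared groups (adjusted p = 0.0538). That fit also ended the Cacng1 call (0.118) and the Cacna1s call, which were lost in 8 and 9 alternatives. The Cacna1s call was also lost with library totals and without any one of vehicle replicates 2 to 4 and LA replicates 1 to 3, at up to 0.131 without LA replicate 1. The Cacng1 call was lost without any one of vehicle replicates 1, 3 and 4 and LA replicates 1 to 3, at up to 0.166 without vehicle replicate 4, the library that was low for most members. The number of members called ranged from 1 to 5 as single libraries were left out, with 5 (Cacna2d1 and Stac3 added) without LA replicate 4 and 4 without vehicle replicate 2, and was 1 without vehicle replicate 3 or 4 or LA replicate 1, 2 or 3.

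The difference between the LA effects at the 2 days was itself tested in the same fit. It was negative and called for 7 members, called in the positive direction for 0, and not called for 3, where 8.68% of all genes were called higher and 11% lower. The members' median was -0.449, with -0.018 for all genes. Jph2 had the most negative value, with log2FC of 0.12 for LA at day 2 and -0.43 at day 6 (difference -0.54, adjusted p = 0.000381). Stac3 followed, with 0.17 at day 2 and -0.36 at day 6 (difference -0.53, adjusted p = 0.000143), and Ryr1 had -0.09 and -0.59 (difference -0.50, adjusted p = 5.29e-05). The others called were Cacnb1 (-0.48, adjusted p = 2.12e-05), Cacng1 (-0.47, 0.000489), Cacna1s (-0.43, 0.000256) and Jsrp1 (-0.40, 0.0154). Jsrp1 was the least firm of them, with the call lost without day 2 LA replicate 3 (adjusted p = 0.0577) and without day 6 vehicle replicate 1. Jph1, lower with LA on both days, had a difference of -0.18 (95% interval -0.325 to -0.025, adjusted p = 0.0807). Ryr3 had -0.15 (-0.402 to 0.0917), which became -0.24 (adjusted p = 0.045) without both libraries that stood apart, and Cacna2d1 -0.02 (-0.189 to 0.148).

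ANGPTL4 at day 2 lowered Ryr3 and Jph1, and no other member was called, where 3.86% of all genes were called higher and 5.96% lower. That split of 39.3% higher among called genes became 27.1% under DESeq2 size factors and 54.2% under library totals. Ryr3 was at 135, 145, 144 and 137 CPM with ANGPTL4 and at 172, 188, 201 and 196 CPM with vehicle, with no overlap and a tight treated group. It fell by 25.9% (log2FC -0.43, SE 0.0809, adjusted p = 0.00375 by edgeR's quasi-likelihood test), while Aven on the other strand was at 13.0 ± 1.32 and 14.6 ± 1.70 CPM (log2FC -0.16, adjusted p = 0.268). Jph1 was at 80.8, 81.4, 85.9 and 76.8 CPM, below every vehicle library (log2FC -0.23, SE 0.0504, adjusted p = 0.00573). Neither call was lost under any alternative tried. Ryr1 was at 467, 542, 534 and 455 CPM against 551, 562, 594 and 515 CPM with vehicle (log2FC -0.15, adjusted p = 0.071). It became called in 6 alternatives, among them without vehicle replicate 4 and without ANGPTL4 replicate 2 or 3, with an adjusted p as low as 0.032. Jsrp1 was higher in 16 of 16 library pairs and was not called (log2FC 0.18, adjusted p = 0.169).

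By day 6 no member was called between ANGPTL4 and vehicle, in a comparison that called 0.0154% of all genes higher and 0.00770% lower. edgeR, limma-voom and DESeq2 each called 0 members. At an unadjusted p under 0.05, edgeR gave 3 members (Ryr1, Cacna1s and Stac3) and 11.6% of all genes. Ryr1 was at 800.2, 789.7, 762 and 749 CPM, below every vehicle library (log2FC -0.14, 95% interval -0.256 to -0.0226, adjusted p = 0.316). The interval for Cacna1s was -0.231 to -0.000383 and that for Ryr3 -0.27 to 0.0944. These intervals do not reach the LA effects of -0.59 on Ryr1 and Cacna1s.

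The change in the ANGPTL4 effect between the days was called for 0 members, with 0.0847% of all genes called higher and 0.192% lower. limma-voom and DESeq2 also called 0, and 5 members had an unadjusted p under 0.05 (18.6% of all genes). Size factors from DESeq2 moved the share of higher calls from 30.6% to 60.7%, and library totals moved it to 17.4%. Ryr3 had the largest positive difference (0.34, interval 0.0956 to 0.594, adjusted p = 0.128) and Stac3 the most negative (-0.25, interval -0.445 to -0.0558, adjusted p = 0.146).

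**Figure D3:**
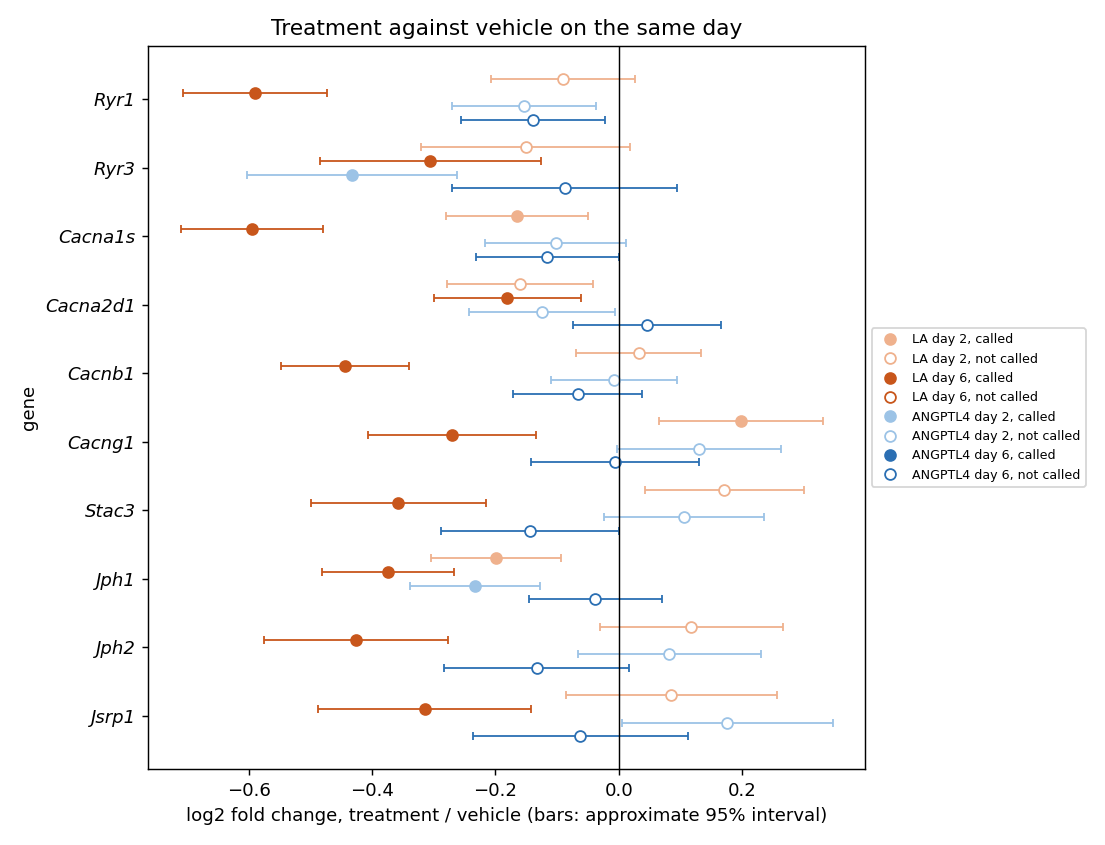
Log2 fold change of LA and ANGPTL4 against vehicle of the same day (horizontal axis) for each member (vertical axis), with approximate 95% intervals; filled points are called. The day 6 LA points are all filled and below 0, from -0.59 to -0.18, and no day 6 ANGPTL4 point is filled.

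LA and ANGPTL4 were also set against each other. At day 2 no member was called, with 0.0616% of all genes called higher and 0.0308% lower. limma-voom and DESeq2 called 0 members, and 1 member had an unadjusted p under 0.05 (12.4% of all genes). That member was Ryr3, at 175, 182, 139.9 and 185 CPM with LA and 135 to 145 CPM with ANGPTL4 (log2FC 0.28, adjusted p = 0.145). The low LA library was replicate 3, which stood apart. Without it the log2FC was 0.37 (adjusted p = 0.00683). At day 6, 9 members were lower with LA, where 6.60% of all genes were called higher and 7.32% lower. The share of higher calls was 47.4%, and 62.9% with library totals. Ryr1 (log2FC -0.45, SE 0.0557, adjusted p = 5.85e-07) and Cacna1s (-0.48, SE 0.0554, 1.83e-07) were again the lowest. The Stac3 call (adjusted p = 0.0379) was lost in 9 alternatives, among them without LA replicate 2 or 4 or ANGPTL4 replicate 2, 3 or 4, at up to 0.205 without the last. The Jsrp1 call (0.0428) was lost in 11, among them without any LA library or ANGPTL4 replicate 1, 2 or 3, at up to 0.233 without ANGPTL4 replicate 2. Ryr3 was not called (-0.22, adjusted p = 0.107).

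Ratios of paired members within a library do not depend on how libraries are scaled. Ryr3 made up 25.4 ± 1.60% of the summed Ryr1 and Ryr3 counts at day 2 with vehicle and 11.3 ± 0.379% at day 6. These are shares of 3′ reads, not of channels. The log2 ratio of Ryr3 to Ryr1 was lower by 1.42 at day 6 in 16 of 16 library pairs (difference -1.42, 2-sided exact permutation p = 0.0286, the smallest possible with 4 against 4, and 0.0571 adjusted over the 10 ratio comparisons). With LA at day 6 the share was 13.5 ± 1.41%, and the log2 ratio was higher than with vehicle in 16 of 16 pairs (difference 0.281, exact permutation p = 0.0286, adjusted 0.0571). With ANGPTL4 at day 2 it was lower in 16 of 16 pairs (difference -0.275, exact permutation p = 0.0286, adjusted 0.0571). No ratio passed 0.05 after adjustment. With an exact permutation p of at least 0.0286, a ratio could pass only if more of the 10 comparisons had reached that minimum. The size of a difference could not change this.

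At day 2 the log2 ratio of Jph2 to Jph1 was 1.68 ± 0.209 with vehicle, 2.01 ± 0.139 with LA and 2.00 ± 0.139 with ANGPTL4. Both treated groups lay above every vehicle library (differences 0.328 and 0.323, exact permutation p = 0.0286, adjusted 0.0571), and they were compared with the same 4 vehicle libraries. The lowest of these was replicate 4, and without it the differences were 0.223 and 0.219. At day 6 the means were 1.66 ± 0.0968 with vehicle, 1.61 ± 0.0458 with LA and 1.57 ± 0.106 with ANGPTL4, and all groups overlapped.

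**Figure D4:**
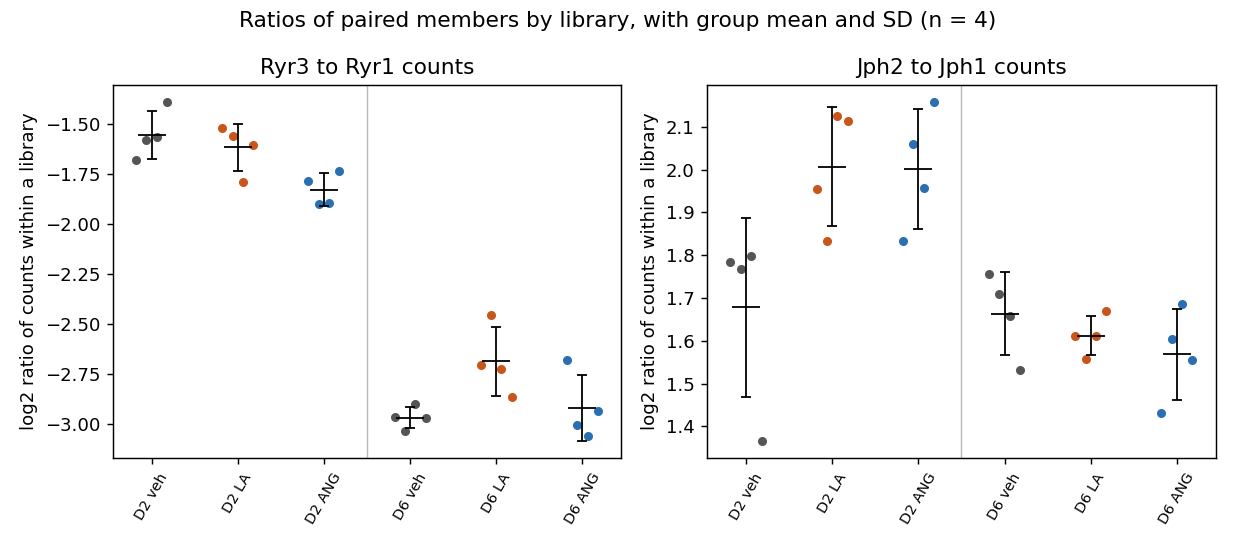
Log2 ratio of Ryr3 to Ryr1 counts (left) and of Jph2 to Jph1 counts (right) within each library (vertical axes) by group (horizontal axis); points are libraries and bars are means with SD (n = 4). The Ryr3 to Ryr1 ratio falls from -1.55 to -2.97 with vehicle, and the Jph2 to Jph1 ratio is above the vehicle libraries at day 2 with either treatment.

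The members did not all vary together. Over the 24 libraries, which share their groups and days, log2 CPM of Ryr1 and Cacna1s had a Pearson r of 0.967, and the deviations from their group means had 0.739. Ryr1 with Jph1 gave 0.939 across libraries and 0.292 within groups, with Cacnb1 0.873 and 0.518, and with Cacna2d1 0.868 and 0.651. Ryr3 and Stac3, the 2 members that fell over the vehicle course, had 0.783 across libraries and -0.487 within groups. Ryr1 with Ryr3 gave -0.473 across libraries and 0.383 within groups, and with Stac3 -0.475 and -0.112. These values are descriptions.

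Outside the list, genes among the 5 most like Ryr1 over the 24 libraries, of 10263 genes with a mean of at least 5 CPM, included Ehbp1l1 (r = 0.9665), Rapgef1 (0.9639) and Rhobtb2 (0.9626). For Cacna1s the 5 were Myom3 (0.9674), which encodes an M-band myomesin, Bicd2 (0.9669), Fam167a (0.9581), Mmp15 (0.9565) and Npnt (0.9536).

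Further genes of the triad, the release complex and the transverse tubule were counted as a list of 31, of which 30 were tested. Over the vehicle course 18 rose and 1 fell (median log2FC 0.33, with 0.0193 for all genes). That comparison called 25.2% of all genes higher and 20.5% lower. Casq1, calsequestrin, the calcium store protein of the reticulum, went from 22.4 ± 0.995 CPM up to 103.8 ± 13.0 CPM (log2FC 2.21, SE 0.11, adjusted p = 6.59e-14). Sypl2, the triad protein mitsugumin 29, rose by 1.29 on the log2 scale, at only 0.392 to 4.34 CPM over all libraries. Cav3, muscle caveolin, rose by 1.24. With LA at day 6, 16 of the 30 fell and 0 rose (median -0.216, with -0.0096 for all genes). Of all genes, 9.38% were called lower and 7.83% higher. Scn4a, the sodium channel that carries the action potential, was at 38.8 ± 4.11 CPM with LA and 64.2 ± 2.99 CPM with vehicle (log2FC -0.72, SE 0.0852, adjusted p = 3.07e-07). Dysf, the membrane repair protein dysferlin, fell by 0.54 on the log2 scale. In the test of the difference between days, 13 of 30 had a lower LA effect at day 6 and 0 a higher one. Among all genes, that test called 11% lower and 8.68% higher. ANGPTL4 at day 6 called 0 of 30, in a comparison that called 0.0154% of all genes higher and 0.00770% lower.

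Of the genes of calcium reuptake and store refilling, 17 of 19 were tested. Over the vehicle course 9 rose and 2 fell, where 25.2% of all genes were called higher and 20.5% lower. With LA at day 6, 7 fell and 0 rose (median -0.26), where 9.38% of all genes were called lower and 7.83% higher. Atp2a1, the fast-twitch calcium pump, was at 696 ± 95.1 CPM with LA and 1104 ± 71.7 CPM with vehicle (log2FC -0.67, SE 0.0704, adjusted p = 5.17e-08). Pvalb, the cytosolic calcium buffer parvalbumin, fell from 3.61 ± 0.647 to 1.34 ± 0.684 CPM (log2FC -1.31, adjusted p = 0.000427), and Camk2b, a calcium-dependent kinase subunit, fell by 0.55. ANGPTL4 at day 6 called 0 of 17, beside 0.0154% of all genes higher and 0.00770% lower.

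Other isoforms of the member families, 12 tested of 26 listed, gave 6 higher and 1 lower over the vehicle course. All genes gave 25.2% higher and 20.5% lower. Cacna1h, a low-voltage-activated channel, rose from 1.38 ± 0.386 to 9.32 ± 1.67 CPM (log2FC 2.75, adjusted p = 4.1e-13). Stac, a homologue of Stac3, rose by 1.82 on the log2 scale, at only 0.222 to 2.25 CPM over all libraries. With LA at day 6, 3 fell (Cacna2d2 by 0.75, Cacng6 by 0.45 and Cacnb3 by 0.18) and 0 rose (median -0.0991). Of all genes, 9.38% were called lower and 7.83% higher there. ANGPTL4 at day 6 called 0 of 12, beside 0.0154% of all genes higher and 0.00770% lower. The heart isoform Ryr2 was not among the genes of the deposited count table, so it was not analysed here.

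**Figure D5:**
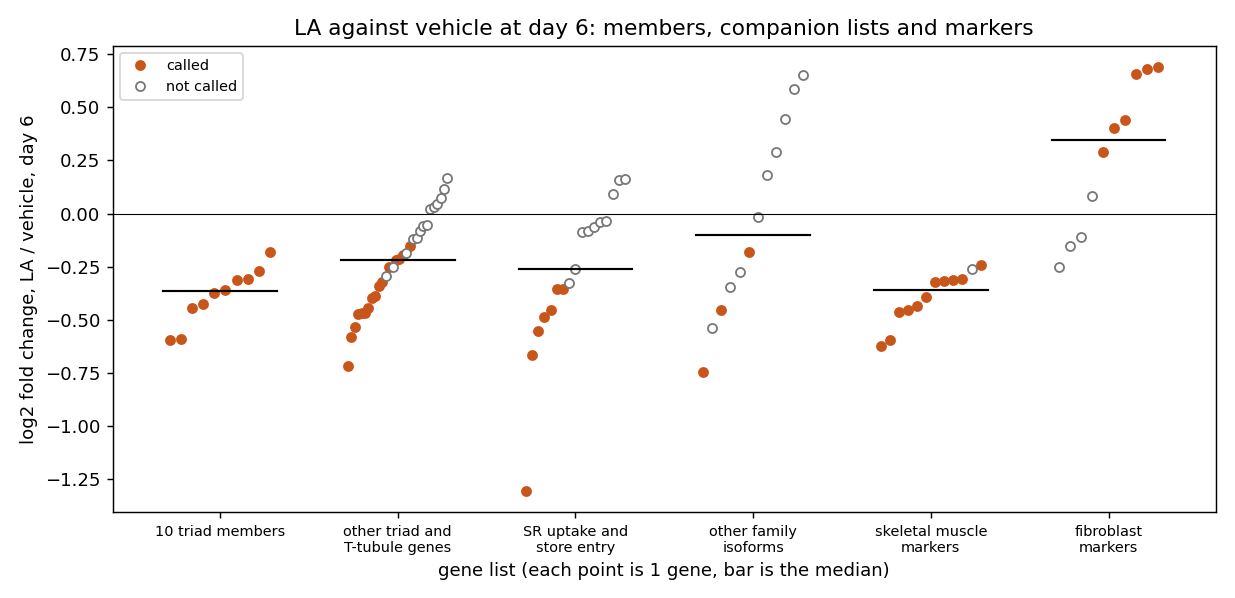
Log2 fold change of LA against vehicle at day 6 (vertical axis) for each tested gene of the 10 members, 3 further calcium-handling lists and 2 marker lists (horizontal axis); bars are list medians and filled points are called. The members all lie below 0 with a median of -0.366, beside -0.216, -0.26 and -0.0991 for the further lists, -0.357 for skeletal muscle markers and 0.347 for fibroblast markers.

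Markers of muscle and of other cells moved at day 6 as well. Of all genes, LA at day 6 called 7.83% higher and 9.38% lower. With LA, 11 of 12 skeletal muscle markers fell and 0 rose (median log2FC -0.357), with a summed level of 12680 to 14000 CPM beside 18180 to 18500 CPM with vehicle. Of 10 tested fibroblast markers 6 rose and 0 fell (median 0.347, summed 13130 to 15730 beside 10990 to 12580 CPM). Of 8 markers of reserve cells and undifferentiated myoblasts 4 rose and 3 fell (median 0.165, summed 2008 to 2125 beside 2353 to 2471 CPM). The median and the sum of this list thus went opposite ways. Of 8 adipocyte markers 2 were tested, Cebpa and Pparg, and both rose, with a summed level of 28.4 to 33.2 beside 20.2 to 22.5 CPM, and of 8 cardiac markers 2 were tested, of which 1 fell and 0 rose. With ANGPTL4 at day 6 none of these lists held a call, where 0.0154% of all genes were called higher and 0.00770% lower. Over the vehicle course 7 skeletal muscle markers rose and 2 fell, and 8 fibroblast markers rose and 1 fell. All genes gave 25.2% higher and 20.5% lower. Whether these marker changes reflect different cell types, and their part in the members' changes, was not tested.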

How the data were processed

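The deposited table held raw counts, whole numbers per gene symbol made by the authors, for 14693 genes in 24 libraries. Libraries were made from total RNA of integrity number above 7 with a QuantSeq 3′ kit, per the labels' protocols. Trimmomatic, STAR 2.7.1a, HTSeq 0.9.1, DESeq2 and mouse build mm39 are named, per the submitters' processing notes, without settings. Columns were matched to samples by name, and LA columns, whose names carry an 18, to titles with 18-2. In R 4.3.3, edgeR 4.0.16 filtered genes (filterByExpr, 1699 removed), scaled libraries (TMM) and fitted all 24 in 1 model of 6 group means by robust quasi-likelihood (18 residual degrees of freedom), with Benjamini-Hochberg adjustment over 12994 genes in each of 11 comparisons. Standard errors were derived from the log2 fold change and F. Ratios used counts plus 0.5 and 2-sided exact permutation tests.

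All 10 members are named, and up to 3 called genes per further list, by largest fold change; likeness took the 5 highest correlations. Some genes that these rules pick are not reported here. Members and lists were chosen with earlier results of these data known. Treatments of a day share their vehicle libraries, so comparisons are not independent. Alternatives were DESeq2 size factors, library totals, no filter, 5 CPM in 4 libraries, limma-voom (limma 3.58.1), DESeq2 1.42.0, only the compared groups, the replicate number as a block, both libraries that stood apart left out, and each library left out. Replicate numbers did not pair the libraries: of 60 same-numbered pairs, 8 correlated above 0.1 in their deviations from group means (range -0.309 to 0.303). The code was tested on simulated data. Promoter windows and overlaps came from GRCm38 (RefSeq GRCm38.p6 and GENCODE vM21), another build than the authors', so no other coordinates are given. Strand and multi-mapping settings of the counting are not given in the sources used here.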

Additional observations from a re-analysis of the deposited data

Results flagged for a closer look

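Among the 60 sets of 4 libraries (10 members in 6 groups), 2 held a library far from its group, where chance gives about 1 in 20 sets. Cacna1s in day 6 LA replicate 2 was at 230.11 CPM, with the other LA libraries at 257.07 to 258.49 CPM. As it was the lowest LA library, leaving it out could not end the separation from vehicle. The log2FC against vehicle was -0.54 without it and -0.59 with it. Jph2 in day 2 ANGPTL4 replicate 1 was at 287.63 CPM, with the others at 333.59 to 343.05 CPM.

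The LA effect differed between day 6 and day 2 by edgeR's test of the difference for 7 members. Among all genes, that test called 11% lower and 8.68% higher. For the 7 members, the differences in log2FC were -0.49894 for Ryr1, -0.42934 for Cacna1s, -0.47582 for Cacnb1, -0.46858 for Cacng1, -0.52875 for Stac3, -0.54423 for Jph2 and -0.3997 for Jsrp1.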

How the results depend on the processing

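Of 110 member results (10 members in 11 comparisons), 55 were called, 43 of them kept the call under every alternative tried, 12 lost it under 1 or more, 7 uncalled results became called, and 12 changed sign, 0 of them called. Members called for LA against vehicle at day 2 (3) came to 5 with limma-voom, 0 with only the compared groups, 1 without both libraries that stood apart, and 1 to 5 without single libraries. For LA against ANGPTL4 at day 2 (0) they came to 1 without both such libraries and 0 to 1 without single ones. The cause was not tested.

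With the replicate number as a block, all 110 member results kept their side of the threshold; among all genes, ANGPTL4 against vehicle at day 6 gave 0 calls and the ANGPTL4 difference between days 0. Calls among all genes moved most where few were made. ANGPTL4 against vehicle at day 6 (3 calls) gave 1 with DESeq2 size factors, 1 with library totals, 87 with DESeq2, 83 with only the compared groups, 10 without both libraries that stood apart and 0 to 7 without single libraries. The ANGPTL4 difference (36) gave 56, 161, 381 and 60 under size factors, totals, DESeq2 and without both libraries, 64 with the 5 CPM filter, 1 with limma-voom and 0 to 312 without single libraries. LA against ANGPTL4 at day 2 (12) gave 30 with limma-voom, 35 with DESeq2, 6 with only the compared groups, 236 without both libraries and 6 to 363 without single ones. LA against vehicle at day 2 (1961) gave 422, 590 and 632 to 2456 in the last 3 ways, and ANGPTL4 against vehicle at day 2 (1276) gave 685 with only the compared groups and 712 to 1192 without single libraries.

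Signs changed only for uncalled log2FC near 0. Size factors gave 0.00070 for Cacna2d1 (LA difference between days) and 0.0055 for Cacna1s (ANGPTL4 difference), DESeq2 0.00092 and 0.0054, the 5 CPM filter 0.0033 for the latter, and leaving out both libraries 0.0013. Totals gave -0.040 for Cacng1 (ANGPTL4 course), 0.014 for Cacnb1 (ANGPTL4, day 2) and -0.017 for Ryr1 (ANGPTL4 difference). Cacng1 (ANGPTL4, day 6) was 1.67e-05 with only the compared groups and 0.0059 without both libraries, as Cacna2d1 (LA against ANGPTL4, day 2) was 0.023. Without single libraries the ranges were -0.012 to 0.060 for Cacnb1 and -0.0040 to 0.13 for Jsrp1 (LA, day 2), -0.052 to 0.012 for Cacnb1 and -0.0089 to 0.12 for Jph2 (ANGPTL4, day 2), -0.046 to 0.056 for Cacna2d1 (LA difference), -0.019 to 0.071 for Ryr1 and -0.061 to 0.037 for Cacna1s (ANGPTL4 difference), -0.091 to 0.012 for Cacna2d1 and -0.014 to 0.076 for Jph2 (LA against ANGPTL4, day 2), -0.021 to 0.051 for Cacng1 (ANGPTL4 course), and -0.046 to 0.050 for Cacng1 and -0.13 to 0.026 for Jsrp1 (ANGPTL4, day 6). The log2 ratio of Ryr3 to Ryr1 for ANGPTL4 at day 6 (0.049) ranged from -0.031 to 0.095, and that of Jph2 to Jph1 over the vehicle course (-0.015) from -0.12 to 0.029. With 4 libraries a group, small changes of a member cannot be resolved.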
